A study of Arabidopsis thaliana with 34 samples.

Results

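The genes described here remove the plant hormone jasmonate or turn it into less active forms. They were the 10 loci JOX1, JOX2, JOX3 and JOX4 (AT3G11180, AT5G05600, AT3G55970 and AT2G38240, the last also known as JRG21), CYP94B1 (AT5G63450), CYP94B3 (AT3G48520), CYP94C1 (AT2G27690), ST2A (AT5G07010), ILL6 (AT1G44350) and IAR3 (AT1G51760), out of 24512 genes that could be named on the array. The rule takes them by their known enzyme activities, through the array's probe annotation, and was written with earlier results of these data known. All 10 had a probe, JOX1 with 2 probe rows and the others with 1 each.

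Jasmonic acid is made after wounding, attack and other stresses, and its conjugate with isoleucine, JA-Ile, is the form that binds the receptor COI1 and sets off the destruction of the JAZ repressors. The level of the hormone is brought down by several routes: JOX enzymes hydroxylate jasmonic acid itself, cytochromes P450 of the CYP94 family oxidise JA-Ile, the sulfotransferase ST2A adds a sulfate group to hydroxyjasmonate, and the amidohydrolases ILL6 and IAR3 cut the amino acid off the conjugates. Several of these genes are known to be switched on by the hormone that their products remove.

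Gene expression was measured with Agilent microarrays in shoots of Arabidopsis plants of the Landsberg background, 16 days old. Wild type (WT) was compared with C13, which carries a bacterial haemoglobin, that of Vitreoscilla, in the cytoplasm, and Mt62, which carries it in mitochondria; each is 1 line, and which promoter drives the transgene is not given in the labels. Untreated plants of each line were the controls at 0, 2 and 24 h. Other plants were sealed in bags that brought oxygen down to 4% (hypoxia, 2 or 24 h). The rest were given 500 µM of a nitric oxide (NO) donor, which the labels call DETA, for 2 or 24 h. All were on agar plates with sucrose under short days. Of the resulting 21 groups, 18 had 4 array channels and 3 had 3 by the sample descriptions (WT DETA 2 h, C13 hypoxia 2 h and Mt62 control 0 h), and the study calls these biological replicates.

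What could be analysed was the authors' deposited table of comparisons between groups, with 34 columns. In 12 of them treated plants were set against untreated plants of their own line at the same time, in 12 against those at 0 h, and in 10 a haemoglobin line was set against WT. Each value is the log fold change of the first group over the second, taken as log2, and is present ("listed") where p in the authors' test did not exceed 0.01, so that about 346 of 34558 rows per column would be listed by chance. "Rose" and "fell" below mean listed. Values come in the order WT, C13, Mt62. The table holds no value per sample, so no standard deviation is available, and the number in parentheses after a value is an upper bound on its standard error computed here from the smallest value that the table lists for that probe. The number is a bound only if the authors' test used 1 standard deviation per probe in all columns, which was assumed here. The same bound gives a listing limit, the size above which a value of that probe would have been listed. In bulk tissue, fewer cells of a type and less RNA per cell cannot be told apart. Since the table holds differences only, the levels of shoot or root genes could not be read. Of 7 measured root marker genes, 0, 1 and 1 rose in the 3 lines under DETA at 2 h, and 1, 0 and 0 at 24 h. Under hypoxia none of them was listed at 2 h, while at 24 h 1, 1 and 0 rose and 2, 1 and 2 fell in the authors' deposited table. The shares of all genes in the same columns are given with the members below. The part of the root markers in the results was not tested.

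Most of the listed changes of these genes were rises under the NO donor, with 7 of the 10 genes up in all 3 lines at 2 h and 2 at 24 h. Over the 10 genes and 34 columns, 77 values were listed. Of these, 37 were against the control of the same time, 38 against the 0 h control and 2 against WT. Among all rows of the array, a mean of 11.7% of values per column were listed. JOX1 and CYP94B3, which encode a jasmonic acid hydroxylase and a JA-Ile hydroxylase, were listed in none of the 34 columns of the authors' deposited table, and with no listed value no limit can be set on how far they moved. ILL6 was listed in 15 columns, JOX2 in 12, CYP94B1 in 11, JOX3 in 10, ST2A in 9, CYP94C1 in 8, and JOX4 and IAR3 in 6 each. JOX2, JOX3, JOX4 and IAR3 were only ever listed as higher than the second group. ILL6 was higher in 9 columns and lower in 6, and CYP94B1 was higher in 4 and lower in 7.

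**Figure D1:**
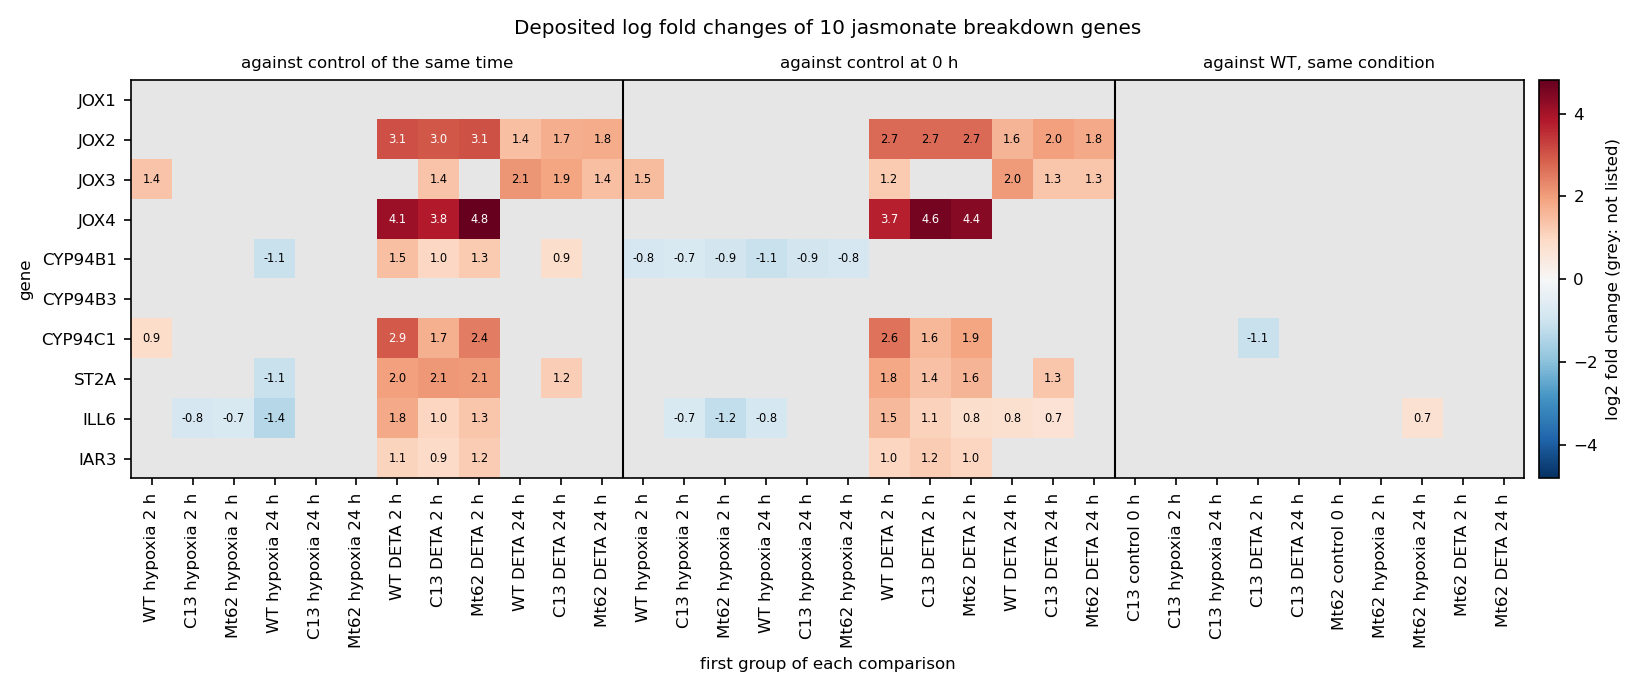
Each cell is a log2 fold change of the authors' deposited table for 1 of the 10 genes (rows) in 1 of 34 comparisons between groups (columns, named by the first group and blocked by the group it was set against); grey cells were not listed. The red block over DETA 2 h spans 7 genes in all 3 lines, the 2 rows of JOX1 and CYP94B3 are empty, and blue cells lie mostly under hypoxia in CYP94B1 and ILL6.

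After 2 h of DETA, compared with the untreated control of 2 h, 7, 8 and 7 of the 10 genes rose in the authors' deposited table and 0 fell in any line. Of all named genes, 5.81%, 4.81% and 5.68% rose and 5.92%, 3.84% and 5.69% fell in the same columns. JOX2, JOX4, CYP94B1, CYP94C1, ST2A, ILL6 and IAR3 rose in every line, 7 of 10, against 2.47% of all genes. The median size of the members' listed values was 1.89, compared with 0.64 for all listed genes. Only listed values enter, and the members' listing limits ran from 0.67 (ILL6) to 3.46 (JOX4). The direction of this contrast was therefore built in. The lines have separate treated and control groups in these columns, so the 3 sets of values do not share samples. The 81 channels lay on 27 array fields of 7 slides, with 3 dyes. The sets may therefore share array effects, which was not tested.

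Among the JOX genes the response to 2 h of DETA ranged from the highest mean of any gene up in all 3 lines (JOX4) to no listed value (JOX1). JOX4, also called JRG21, was listed at 4.09 (1.45), 3.82 (1.34) and 4.77 (1.34) in the authors' deposited table, a mean of 4.23 or 18.7-fold. It ranked 1st by mean among the 606 genes that rose in all 3 lines. The line values of JOX4 differed by less than their bounds, which are wide, since the smallest listed value of this probe is 3.73. JOX2 rose by 3.11 (0.60), 2.98 (0.56) and 3.05 (0.56) in the authors' deposited table, a mean of 3.05 that ranked 8th of the 606. The values of JOX2 in the 3 lines lay well within their bounds of each other and closer together than those of JOX4. JOX3 was listed only in C13, at 1.39 (0.45). Its WT value was not listed, but sums of other columns of the authors' deposited table recovered it as 1.10, and the listing limit for Mt62 was 1.16, so the lines are not shown to differ.

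Both CYP94 genes that were listed also rose. CYP94C1, which oxidises the hydroxylated conjugate further to the carboxylic acid, was listed at 2.93 (0.38), 1.69 (0.35) and 2.44 (0.35) in the authors' deposited table, a mean of 2.35. C13 had the lowest of the 3 values. CYP94B1, a JA-Ile hydroxylase, was at 1.46 (0.29), 1.00 (0.27) and 1.25 (0.27), and again C13 was lowest. ST2A, whose sulfotransferase acts after hydroxylation, rose by nearly the same amount in each line, at 1.96 (0.44), 2.07 (0.41) and 2.05 (0.41). The amidohydrolase gene ILL6 was listed at 1.82 (0.28), 1.05 (0.26) and 1.33 (0.26) in the authors' deposited table, highest in WT. IAR3, its relative, was at 1.08 (0.39), 0.93 (0.36) and 1.20 (0.36). Ranked among the 606 genes by mean, CYP94C1 was 29th, ST2A 48th, ILL6 137th, CYP94B1 174th and IAR3 235th.

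With p computed from the bound and adjusted by Benjamini and Hochberg over all 34558 rows, JOX2, CYP94B1, CYP94C1, ST2A and ILL6 passed 0.05 in all 3 lines, with the largest adjusted p 0.018 for CYP94B1 in C13. JOX4 passed in Mt62 alone (adjusted p 0.0946, 0.128 and 0.0195), as did IAR3 (adjusted p 0.109, 0.173 and 0.035). The bound is taken from the probe's own smallest listed value, which for IAR3 is the C13 value here. Whether and how far it lies above the true error of JOX4 and IAR3 is not known.

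Set against the 0 h control instead, the response to 2 h of DETA was similar for 6 of these 7 genes. Both sets of columns hold the same treated groups, so part of this likeness is built in. JOX4 was at 3.73, 4.61 and 4.36, JOX2 at 2.71, 2.72 and 2.71 and CYP94C1 at 2.60, 1.59 and 1.88 in the authors' deposited table. ST2A was at 1.84, 1.40 and 1.62, ILL6 at 1.55, 1.12 and 0.85 and IAR3 at 1.02, 1.20 and 1.04, all relative to plants of the same line at 0 h. In total 7, 6 and 6 members were listed, where 15.9%, 14.7% and 14.8% of all genes were listed in either direction, and JOX3 was the additional one in WT, at 1.25. CYP94B1 was the exception, with no value listed against 0 h in any line. Its listing limits there were 0.74, 0.68 and 0.74, below its rise against the 2 h control by 0.72, 0.32 and 0.52. The untreated CYP94B1 level of 2 h therefore lay below that of 0 h by at least those amounts, if the limits hold.

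**Figure D2:**
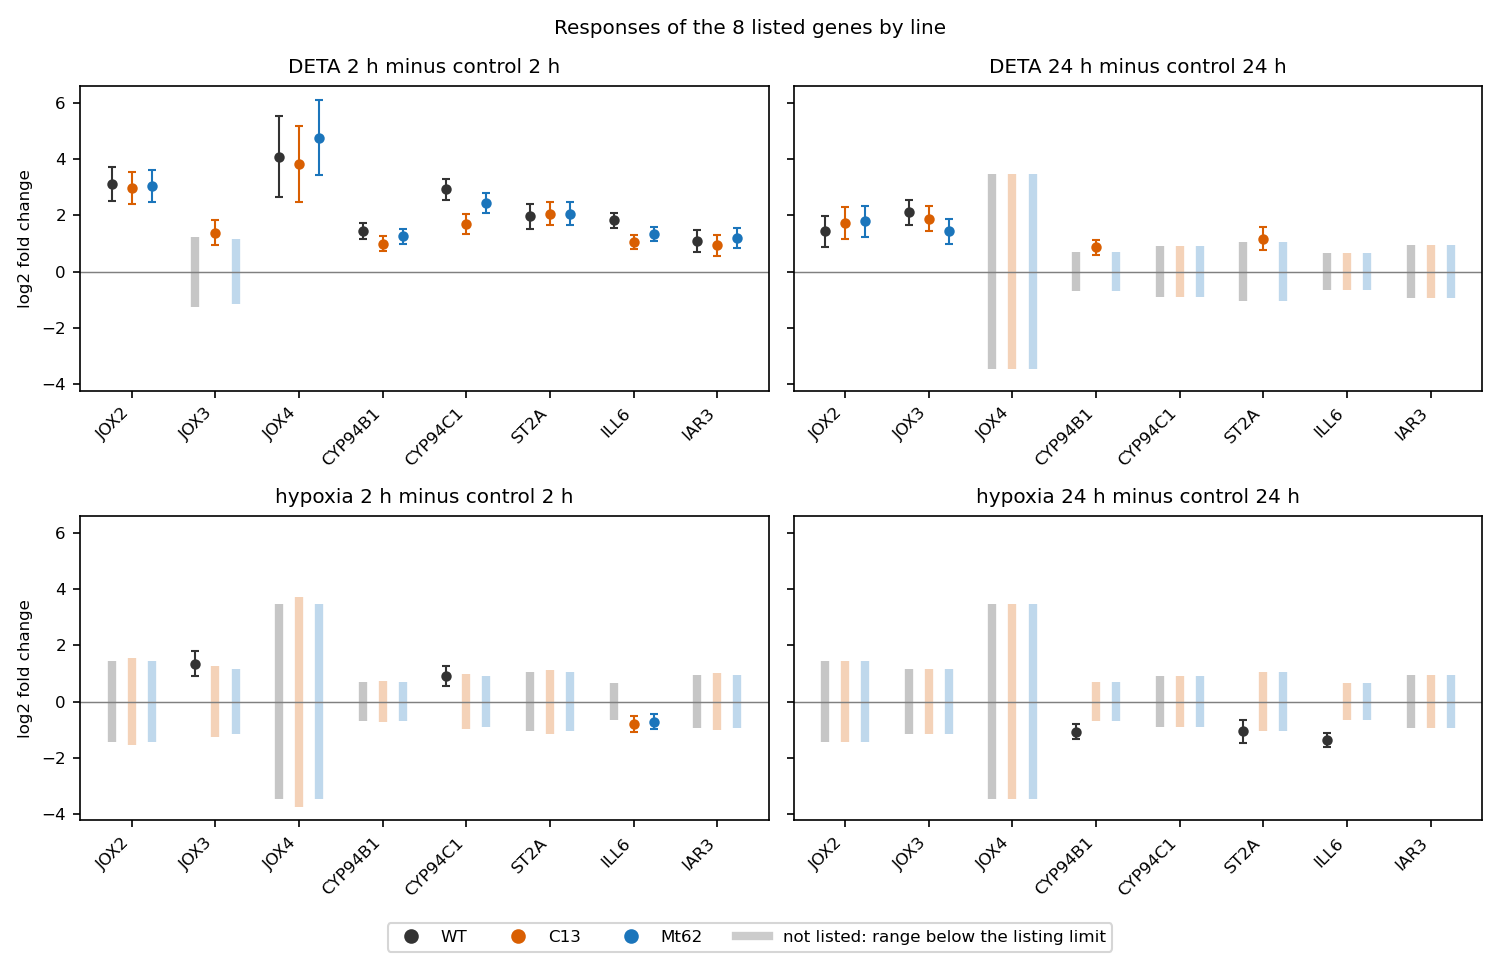
Points are log2 fold changes of the authors' deposited table against the control of the same time for the 8 genes that were ever listed, by line, with bars of 1 upper bound on the standard error; pale bars span the values that would not have been listed. At 2 h of DETA 7 genes lie above 0 in all 3 lines, at 24 h only JOX2 and JOX3 do, and under hypoxia no gene has points in all 3 lines.

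After 24 h of DETA fewer of the 10 genes were listed than at 2 h. JOX3, by then listed in every line, had been listed against the 2 h control in C13 alone, with 1.10 recovered in WT. Against the 24 h control 2, 4 and 2 of the 10 genes rose and 0 fell in the authors' deposited table, where 5.32%, 3.99% and 2.72% of all genes rose and 5.79%, 3.89% and 3.32% fell. JOX2 and JOX3 rose in every line, 2 of 10, against 1.02% of all genes. JOX3 was listed at 2.12 (0.45), 1.88 (0.45) and 1.44 (0.45), a mean of 1.81, and stood 10th by mean among the 250 genes that rose in all lines. JOX2 was at 1.43 (0.56), 1.73 (0.56) and 1.79 (0.56), a mean of 1.65, and stood 15th. In adjusted p from the bound over all rows JOX3 passed 0.05 in WT and C13 (0.00091 and 0.0074) but not in Mt62 (0.0952), while JOX2 passed in no line (0.133, 0.0895 and 0.0936). The WT value of JOX2 is the smallest listed for its probe and so sets the bound itself. ST2A and CYP94B1 rose in C13 alone, by 1.17 (0.41) and 0.86 (0.27); their WT values could not be recovered, so a difference between the lines was not tested. The median size of the members' listed values was 1.58, compared with 0.60 for all listed genes. As at 2 h, every listing limit of the members lies above the median of all genes, so the direction was built in.

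Whether the other genes had fallen back by 24 h depends on their listing limits. CYP94C1 was not listed at 24 h in any line, which puts it under 0.90 in the authors' deposited table, after 1.69 to 2.93 at 2 h. ILL6 was under 0.67 in every line, and in WT the recovered value was 0.25, after 1.82 at 2 h. For IAR3 the limit of 0.93 is no lower than its smallest value at 2 h, and for JOX4 the limit of 3.46 lies just below its smallest value at 2 h, so at 24 h a large part of either response could have remained without being listed.

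Relative to the 0 h control, 3, 4 and 2 genes were listed at 24 h of DETA in the authors' deposited table, all higher, where 2.78%, 3.05% and 3.43% of all genes were listed. JOX3 was at 2.05, 1.34 and 1.33, and JOX2 at 1.63, 1.95 and 1.80. ILL6 was at 0.78 in WT and 0.68 in C13, and ST2A at 1.32 in C13. The same sums gave the direct step from 2 to 24 h of DETA for some genes. JOX2 stood lower at 24 h than at 2 h by 1.07 (recovered -1.07, bound 0.60) in WT, with -0.77 (0.56) in C13 and -0.90 (0.56) in Mt62, less than 2 bounds in each line. JOX3 went the other way in WT, at 0.80 (0.48), also less than 2 bounds. ILL6 differed by -0.77 (0.28) in WT and -0.43 (0.26) in C13, while ST2A in C13 was at -0.08 (0.41).

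Sums of columns of the authors' deposited table also gave some differences between untreated plants of different times. For JOX2, JOX3, JOX4, CYP94C1 and IAR3 each of those recovered lay within 2 bounds. Between 0 and 24 h the controls of JOX2 differed by 0.20, 0.23 and 0.01 (bounds 0.56, 0.56 and 0.60), and those of JOX3 by -0.07, -0.53 and -0.11 (0.45, 0.45 and 0.48). In C13 the ST2A control stood 0.82 (0.41) higher at 24 h than at 2 h. For ILL6 the WT controls stood 0.53 (0.26) higher at 24 h than at 0 h and 0.80 (0.26) higher at 24 h than at 2 h. For ILL6 the size of a treatment effect at 24 h in WT therefore depends on the control: DETA was at 0.25 against the 24 h control and at 0.78 against 0 h.

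**Figure D3:**
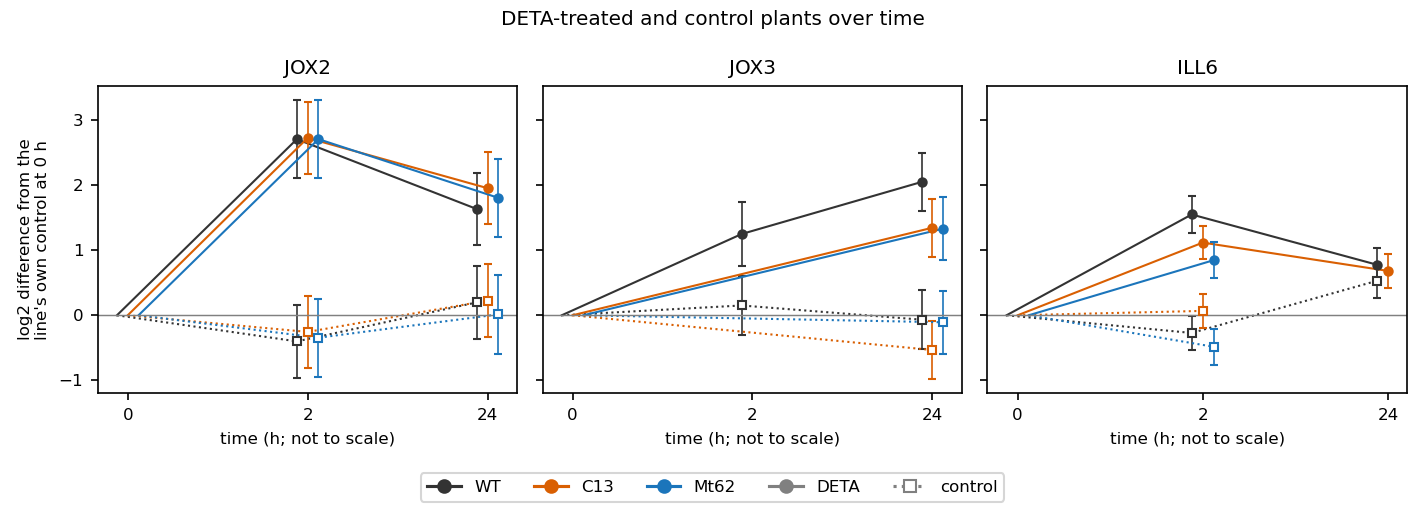
Points show the log2 difference from the same line's own control at 0 h, for plants given DETA (filled, listed values of the authors' deposited table) and untreated controls (open, recovered from sums of columns), with bars of 1 upper bound on the standard error; the time axis is not to scale and a missing point was neither listed nor recovered. JOX2 is high at both times in all lines, the JOX3 point of WT is higher at 24 h than at 2 h by less than 2 bounds, and the ILL6 control of WT rises towards the treated point at 24 h.

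Under hypoxia none of the 10 genes was listed in all 3 lines against the control of the same time. With 10 genes and the shares of all genes given below, a count of 0 does not set the members apart. At 2 h, against the 2 h control, 2, 0 and 0 rose and 0, 1 and 1 fell in the authors' deposited table, where 8.24%, 9.68% and 9.38% of all genes rose and 9.92%, 10.4% and 10% fell. None rose in all 3 lines, as 5.4% of all genes did. In WT, JOX3 was listed at 1.35 (0.45) and CYP94C1 at 0.90 (0.35). ILL6 was listed at -0.79 (0.28) in C13 and -0.71 (0.26) in Mt62, and its WT value was within the limit of 0.67. The values of JOX3 in C13 and Mt62 lay under 1.25 and 1.16, so the lines are not shown to differ. Against the 0 h control 2 genes were listed in each line (19%, 22.1% and 18.6% of all genes). CYP94B1 fell in all lines, with values of -0.81, -0.74 and -0.87, ILL6 fell in C13 (-0.72) and Mt62 (-1.20), and JOX3 rose in WT (1.50). For CYP94B1 no value was listed against the 2 h control, with limits of 0.68 to 0.74, and by the limits given above the untreated level had dropped over the same 2 h.

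At 24 h of hypoxia, when 18.8%, 17.5% and 15.1% of all genes rose and 17%, 17.1% and 15.8% fell, 0 members rose in any line and 3, 0 and 0 fell. The share in WT, 3 of 10, is to be read against that background of 17%, and 11.5% of all genes rose in all 3 lines. The 3 genes that fell in WT were ILL6 at -1.36 (0.26), CYP94B1 at -1.06 (0.27) and ST2A at -1.05 (0.41) in the authors' deposited table. In C13 and Mt62 the listing limits were 0.67, 0.68 and 1.05 for these genes. For ST2A that limit is set by the WT value itself, so a fall of the same size could have gone unlisted in the other lines. Against the 0 h control 2, 1 and 1 were listed (37.2%, 37% and 31.5% of all genes). CYP94B1 was lower in every line, at -1.07, -0.88 and -0.81, and ILL6 was lower in WT, at -0.83. The median size of the members' listed values was 0.84 at 2 h and 1.06 at 24 h, compared with 0.68 and 0.78 for all listed genes. These medians hold listed values only and so depend on the listing limits of the probes.

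Both treatments were set against the same controls, so their columns are not independent, but sums of columns of the authors' deposited table gave the treated groups relative to each other. ILL6 was higher under DETA than under hypoxia by 1.84 (0.28) in C13 and 2.05 (0.26) in Mt62 at 2 h, and by 1.61 (0.26) in WT at 24 h. Each of these differences is over 6 times its bound. CYP94C1 was higher under DETA by 2.03 (0.38) in WT at 2 h. JOX3 in WT at 2 h did not separate the treatments, at -0.25 (0.48).

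Between a haemoglobin line and WT 2 member values were listed, and few of all genes were listed there too, so the count does not set the members apart. In C13, 1 member value over the 5 conditions was listed: CYP94C1 under 2 h of DETA was lower than in WT, at -1.06 (0.38). The share of all genes listed against WT in C13 was 2.78% at 0 h, 1.62% and 2.95% under hypoxia at 2 and 24 h, and 2.61% and 2.94% under DETA at 2 and 24 h. In Mt62, 1 was listed: ILL6 under 24 h of hypoxia stood above WT, at 0.73 (0.26). The shares of all genes in Mt62 were 0.775%, 1.23%, 4.3%, 1.32% and 3.73% in the same order. From the bound, adjusted p over all rows was 0.538 for CYP94C1 and 0.297 for ILL6, so neither passed. Without treatment CYP94C1 differed between C13 and WT by -0.05 (0.35) at 0 h and 0.17 (0.35) at 2 h, as recovered from the authors' deposited table.

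Whether the response itself differed between a transgenic line and WT could be computed for 19 member values, all under DETA, in 8 genes. None passed an adjusted p of 0.05 over the 31557 recovered differences (t test on the bound with 60 degrees of freedom, Benjamini-Hochberg), where 0.101% of all differences passed, and 2 of the 19 had an unadjusted p under 0.05, as did 1445 of the 31557 (4.58%). These were the weaker 2 h responses of C13 in CYP94C1, at -1.24 (95% interval -2.26 to -0.21), and in ILL6, at -0.77 (-1.53 to -0.01), with adjusted p of 0.87 and 1.00. For JOX2 the response at 2 h differed from WT by -0.13 (-1.77 to 1.51) in C13 and -0.06 (-1.70 to 1.58) in Mt62, and for ST2A by 0.10 (-1.10 to 1.31) and 0.09 (-1.12 to 1.29). These intervals are wide enough to hold differences of over 1 in either direction. A pair entered only where the responses of both lines were listed or recovered. Responses such as those of ST2A and CYP94B1 in C13 at 24 h of DETA were therefore left out. The bound is taken as an upper limit on the error, so a true difference can fail here, and the lack of a call does not show equal responses.

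The rest of the jasmonate pathway was read from lists of genes for synthesis, signalling, outputs and close relatives of the members. After 2 h of DETA, 6, 5 and 5 of 13 measured synthesis genes rose and 2, 0 and 2 fell in the authors' deposited table, with 5 up in every line. The background for each list in these columns was 5.81%, 4.81% and 5.68% of all genes up and 5.92%, 3.84% and 5.69% down. In all 3 lines 2.47% rose. Examples that rose in all lines were AOC1 and AOC3, allene oxide cyclases, with means of 2.45 and 1.92, OPR3, the reductase of the peroxisomal steps, at 1.68, and OPCL1, a ligase of the same branch, at 1.55. Of 18 signalling genes 10, 8 and 10 rose and 1, 0 and 1 fell, with 8 up in every line, led by the repressor genes JAZ1 (3.21, 1.99 and 3.24), JAZ8 (mean 2.50), JAZ10 (2.41) and JAZ9 (2.40). Of 7 output genes 1, 4 and 1 rose, and CLH1, a chlorophyllase gene, was up in every line with a mean of 1.84. By share, 7, 8 and 7 of 10 breakdown genes rose, compared with 6, 5 and 5 of 13 for synthesis and 10, 8 and 10 of 18 for signalling.

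The shares of all genes given above for each comparison are the background of the counts that follow. At 24 h of DETA, when 5.32%, 3.99% and 2.72% of all genes rose, 1, 1 and 1 of 13 synthesis genes rose and 3, 0 and 0 fell, with AOC1 up in every line (mean 1.43). Of the 18 signalling genes 0, 4 and 0 rose and 1, 0 and 0 fell, while 4, 2 and 5 of the 7 output genes rose, CLH1 (mean 1.69) and the thionin gene THI2.1 (0.99) in every line of the authors' deposited table. At 2 h of hypoxia, when 8.24%, 9.68% and 9.38% of all genes rose and 9.92%, 10.4% and 10% fell, the synthesis list had 2, 2 and 2 up and 1, 1 and 2 down, and the signalling list 1, 3 and 2 up and 1, 5 and 1 down. JMT, the methyltransferase that makes methyl jasmonate, rose in every line by a mean of 1.00, and so did JAZ2 (0.54) and the output gene CORI3 (0.89). At 24 h of hypoxia, when 17%, 17.1% and 15.8% of all genes fell and 18.8%, 17.5% and 15.1% rose, 6, 3 and 5 synthesis genes fell and 1, 2 and 1 rose. LOX2, a lipoxygenase that opens the pathway, was at -2.08, AOS, the allene oxide synthase, at -1.45 and AOC2 at -1.42, as means over the lines. Of the signalling genes 8, 7 and 2 fell and 3, 4 and 4 rose, the rises being near the share of all genes, with JAZ9 (-1.55) and JAZ11 (-0.51) down and JAZ5 (1.08), NINJA (0.57) and the receptor gene COI1 (0.48) up in every line of the authors' deposited table.

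**Figure D4:**
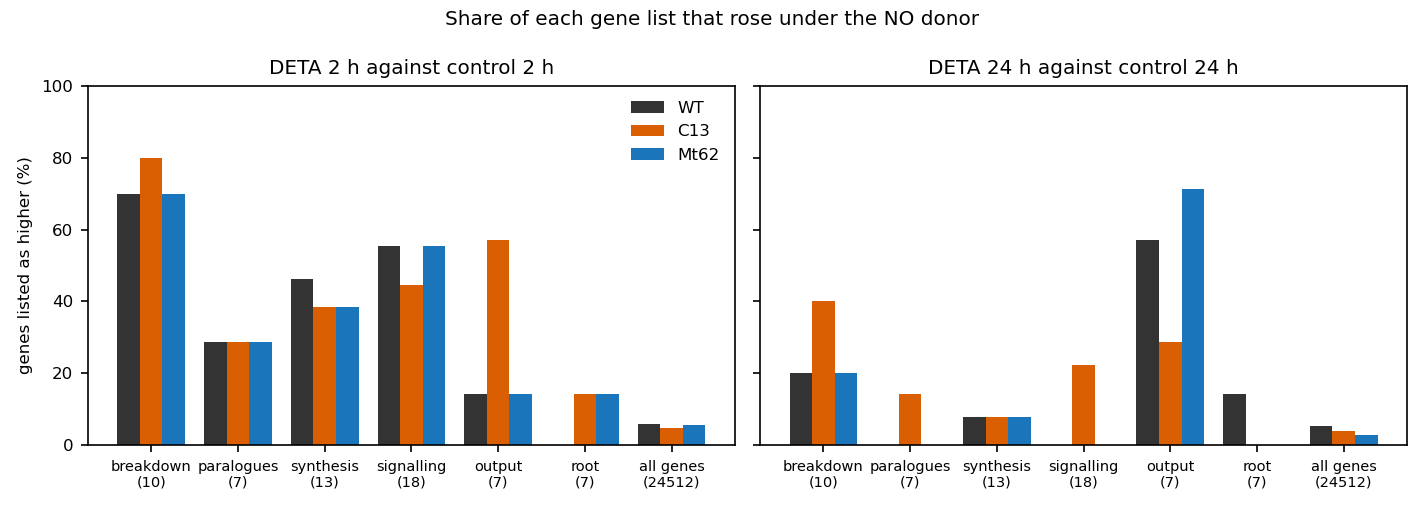
Bars show the percentage of each list's measured genes (number in brackets) that were listed as higher under DETA than in the control of the same time, by line, from the authors' deposited table; the last group is all named genes. At 2 h 7, 8 and 7 of the 10 breakdown genes rose, against 5.81%, 4.81% and 5.68% of all genes; at 24 h it was 2, 4 and 2.

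Of the 7 close relatives of the members, 2, 2 and 2 rose and 1, 0 and 1 fell after 2 h of DETA. Among all named genes 5.81%, 4.81% and 5.68% rose and 5.92%, 3.84% and 5.69% fell in these columns. Those that rose in every line were ILL5 and ST2B. ILL5, 1 protein-coding gene away from IAR3 on the chromosome, was listed in the same 6 columns as IAR3, and their values differed by 0.02 to 0.21. The probes of such close copies can share signal, so the 2 genes may not have been measured separately. ST2B lies directly beside ST2A with no gene between them. In the 2 h DETA columns of the authors' deposited table it was at 0.89, 0.60 and 1.00, below ST2A in every line. At 24 h of hypoxia ST2B fell in all 3 lines (-1.37, -1.06 and -0.83), where ST2A fell in WT alone, and ILL3 fell as well, by a mean of -0.53. A fall in all 3 lines was listed there for 10.96% of all genes.

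Some members of different enzyme classes had like patterns, and others did not. JOX1 and CYP94B3 were never listed, and under 2 h of DETA CYP94B1 was listed against the 2 h control only. JOX3 and CYP94B1 were listed together in 3 columns, with the same sign in 2. JOX4 and IAR3 were listed in the same 6 columns of the authors' deposited table, the 2 h DETA comparisons with either control, and JOX2, CYP94C1, ST2A and ILL6 were listed as higher in those 6 columns too. The pattern of JOX4 and IAR3, call for call over the 34 columns, was shared by 45 other genes for each, so it is not particular to them. For the 3 members listed most often, the genes most alike in calls over the 34 columns were found. JOX2 had 3 genes with the same call in all 34: PRN, which encodes a pirin, AT1G65845 and the cytochrome P450 gene CYP81D1. ILL6 was most like the repressor gene JAZ6 (30 of 34 columns), the transcription factor gene WRKY28 (29) and AT1G32460 (27). CYP94B1 was most like ROT3, a cytochrome P450 gene of brassinosteroid synthesis (33 of 34), MYB55 (32) and BEH1 (32), both transcription factor genes. Columns that share a group are not independent of each other, and no test was made of these likenesses.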

How the data were processed

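The members and the gene lists were chosen with earlier results of these data known, so their counts are not independent support of a pattern. Per the series' design text, the authors applied quantile normalization, an in-house version of ComBat and an empirical Bayes t-test in R and Bioconductor, and set values with p above 0.01 to null; no adjustment of p is stated. The deposited values are log fold changes taken as log2, since no label states the base; they run from -4.60 to 5.98. By the design text probe scores were averaged for each gene, but the table has 1 row per probe, 34558 in all.

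Probes were named from the platform annotation by accession (24525 rows) or by symbol (1821); 8212 rows have no gene. Where a gene had several rows, 1 listed row sufficed if none was listed the other way, and its listed rows were averaged. Columns sum to 0 over closed loops within 2.0e-09, so unlisted values can be recovered by addition (10550). In 4412 of 4473 rows (98.6%) every listed value, scaled by channel numbers, exceeded every recovered unlisted one. The smallest scaled listed value of a row, divided by 2.58, bounds its standard error if 1 standard deviation per row served all columns. The rows outside the 4412 did not keep the order that this implies. From it p was computed (t distribution, 60 degrees of freedom), with Benjamini-Hochberg adjustment over all rows. Array fields repeated in a description were counted once. Array precision is limited by the number of channels, and signal over background is not part of the table.

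Named genes were all members, up to 4 per list with the largest mean among those listed alike in all 3 lines, and 3 genes most alike in calls to each of the 3 members listed most often. Python 3.11.15, pandas 2.3.3, scipy 1.17.1 and matplotlib 3.10.9 were used. The steps were tested on simulated data with 1 standard deviation per row in all groups. That test could not check whether this assumption of the bound holds for the authors' values. Promoter and protein sequences were not analysed here.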

Additional observations from a re-analysis of the deposited data

How the results depend on the processing

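With adjusted p from the bound in place of the authors' listing, the count of members up in all 3 lines went from 7 to 5 at 2 h of DETA and from 2 to 0 at 24 h, and the counts against WT went from 1 to 0 in C13 and from 1 to 0 in Mt62. A probe's smallest listed value sets its bound and so lies at the listing limit by construction. JOX2 in WT at 24 h of DETA (1.43) and IAR3 in C13 at 2 h (0.93) were such values. JOX4 was listed under 2 h of DETA only, so its bound comes from that same response. The losses of these 3 genes are thus partly built in. In all 47 of the 77 listed member values passed, 23 of 37 against same-time controls, 24 of 38 against 0 h and 0 of 2 against WT. The share of all listed values that passed is not given here, so these counts do not set the members apart. With an absolute value of at least 1 required, the counts were 6 at 2 h of DETA, 2 at 24 h, 1 for C13 and 0 for Mt62. With the 0 h control, but the same treated groups, they were 6 and 2 under DETA. Naming probes by accession only, or requiring every row of a gene to be listed, left the counts at 7 and 2. Under hypoxia the count up in all 3 lines was 0, and of these settings only the 0 h control could have raised it; it gave 0. For C13 hypoxia 2 h (3 channels) and Mt62 hypoxia 24 h (4), swapped numbers fitted the order of listed and recovered values slightly better. Swapping these channel numbers left the count of differing line responses at 0. All 19 of those differences were under DETA, so the swap could act only through the bounds and was a weak check. The stricter threshold of 0.01 could not have changed the count. No paired analysis was possible because the table holds comparisons between groups and no value per sample, so no replicate could be left out either. The lack of a call in JOX1 and CYP94B3 says nothing on their size of change.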
